A study of Homo sapiens with 6 samples.

Results

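The EGF receptor ligands, the ERBB receptors and the feedback inhibitor ERRFI1 were followed through RNA sequencing of HaCaT, a human keratinocyte line from epidermis that became immortal spontaneously. The set holds 10 genes, found by symbol among the 46287 rows of the count table: the ligands AREG, EREG, HBEGF, TGFA, BTC and NRG1, the receptors EGFR, ERBB2 and ERBB3, and ERRFI1. All 10 were in the table and all 10 passed the filter on low counts. Cells with both copies of SDR42E1 knocked out by CRISPR/Cas9 gave 3 libraries and wild-type control cells gave 3; both were grown in high-glucose medium with serum and collected before confluence. The labels call the replicates biological without saying whether they came from separate cultures or edited clones, so each p-value covers only the variation among these libraries; the position of the edit is not stated in the labels. Libraries held 11504473 to 13454544 counts in the knockout and 12094896 to 16928201 in the control. The genes were chosen by their family and with the knockout-to-control fold changes of these same libraries already known, so their own differences are given as a description and without p-values.

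The ligands of this family are made as membrane-anchored precursors and are released by metalloproteases such as ADAM17. AREG, EREG, HBEGF, TGFA and BTC bind EGFR, and EREG, HBEGF and BTC also bind ERBB4, whereas NRG1 binds ERBB3 and ERBB4. ERBB2 has no known ligand and acts as a dimer partner of the other receptors. ERBB3 has a weak kinase and signals through such partners. In keratinocytes, EGFR signalling promotes proliferation and migration and restrains differentiation. ERRFI1 binds the EGFR kinase domain and blocks its activity.

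The targeted gene was checked first. SDR42E1 had 268, 265 and 237 counts in the knockout libraries, against 650, 822 and 601 in the control libraries. Its RNA was lower in every knockout library and was still present. The log2 fold change was -1.16 (SE 0.08, edgeR adjusted p = 2.69e-14). All 12 keratinocyte markers, KRT5, KRT14 and TP63 among them, passed the filter, at a summed 9984 to 10231 CPM (counts per 1000000 counts, scaled to library size and composition) in the knockout and 9460 to 10065 CPM in the control. Of these 12, 7 were higher at an edgeR adjusted p under 0.05, ITGB4 (log2 0.76), LAMB3 (0.65) and ITGA6 (0.51) among them. KRT5 was lower (-0.66), and 4 did not pass. That was 58.3% higher and 8.33% lower, where all tested genes had 24.6% and 25.8%. Markers of other cell types were at low summed levels: fibroblast markers at 1.12 to 2.13 CPM in the knockout and 4.30 to 6.19 in the control, with PDGFRA and DCN at 0 counts, and immune markers at 8.31 to 9.94 CPM in the knockout and 5.68 to 8.68 in the control, most of it CD68, with CD3E at 0. Melanocyte markers summed to 19.5 to 23.7 CPM in the knockout and 24.3 to 25.2 in the control, mostly MITF, with TYR at 0, and endothelial markers to 1.92 to 2.66 CPM in the knockout and 3.65 to 4.28 in the control. All 4 simple-epithelial keratins were detected, at a summed 4931 to 5413 CPM in the knockout and 4877 to 4936 in the control; KRT18 differed by 1.36 and KRT19 by -1.59 on the log2 scale, and the part of all these markers in the results was not tested. In such bulk libraries, fewer cells of a type and less RNA per cell cannot be told apart.

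AREG and EREG are neighbours on the long arm of chromosome 4 and were the ligands with the largest and the next largest rise, so the DNA just before their starts is shown. The lines give the bases from 250 to 11 before each RefSeq start (GRCh38.p14, plus strand), chr4:74444886-74445125 for AREG and chr4:74364895-74365134 for EREG, where the annotation places no exon. Capitals mark matches to TATAAA, the TATA box, and to TGACGTCA, the cAMP response element.
AREG: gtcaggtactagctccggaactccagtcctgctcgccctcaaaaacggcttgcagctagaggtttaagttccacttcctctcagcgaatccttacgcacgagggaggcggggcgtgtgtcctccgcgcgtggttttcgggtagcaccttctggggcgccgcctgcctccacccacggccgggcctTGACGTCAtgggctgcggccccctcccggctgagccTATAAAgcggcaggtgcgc
EREG: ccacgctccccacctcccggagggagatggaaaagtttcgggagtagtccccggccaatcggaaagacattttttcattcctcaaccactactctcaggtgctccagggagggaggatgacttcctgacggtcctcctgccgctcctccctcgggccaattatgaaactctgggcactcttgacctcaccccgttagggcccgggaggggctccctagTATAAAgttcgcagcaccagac
AREG had a TATAAA match that began 29 bases before the start and a TGACGTCA match that began 65 bases before it. EREG had a TATAAA match that began 32 bases before its start. Of 35116 such windows in the RefSeq table, searched on both strands, 10.6% held TATAAA and 1.57% held TGACGTCA. The letters TGANTCA (the AP-1 motif, in 6.43% of all windows) and CCGGAAGT (an ETS motif, in 2.92%) were searched as well and were not in either window. No motif overlapped another in these windows. The table held windows for 8 of the 10 genes, and NRG1 and ERBB3 were not matched. The windows of TGFA, HBEGF, BTC and ERRFI1 and window 1 of EGFR held none of these motifs. Window 2 of EGFR held TGANTCA and TATAAA, and the window of ERBB2 held TGANTCA and CCGGAAGT. The part of these motifs in the changes was not tested.

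All 6 ligands were higher in knockout cells, ERBB2 and ERBB3 were lower, and EGFR and ERRFI1 were slightly higher. At an adjusted p under 0.05 in edgeR's quasi-likelihood test, 8 of the 10 genes were higher and 2 lower. Over all 12293 genes tested, 50.4% passed by the same rule, 24.6% higher and 25.8% lower. The groups did not overlap in any of the 10 genes, 8 with the knockout above and 2 with it below, where 56.5% of all tested genes did not overlap, 27.5% above and 29% below. The median log2 fold change was 1.65 for the 6 ligands and -0.0040 for all tested genes. A change of at least 2-fold past the same threshold was found upward in 4 members and in 1.91% of tested genes, and downward in 1 member and in 5.23%. These counts describe genes chosen with the contrast known.

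**Figure D1:**
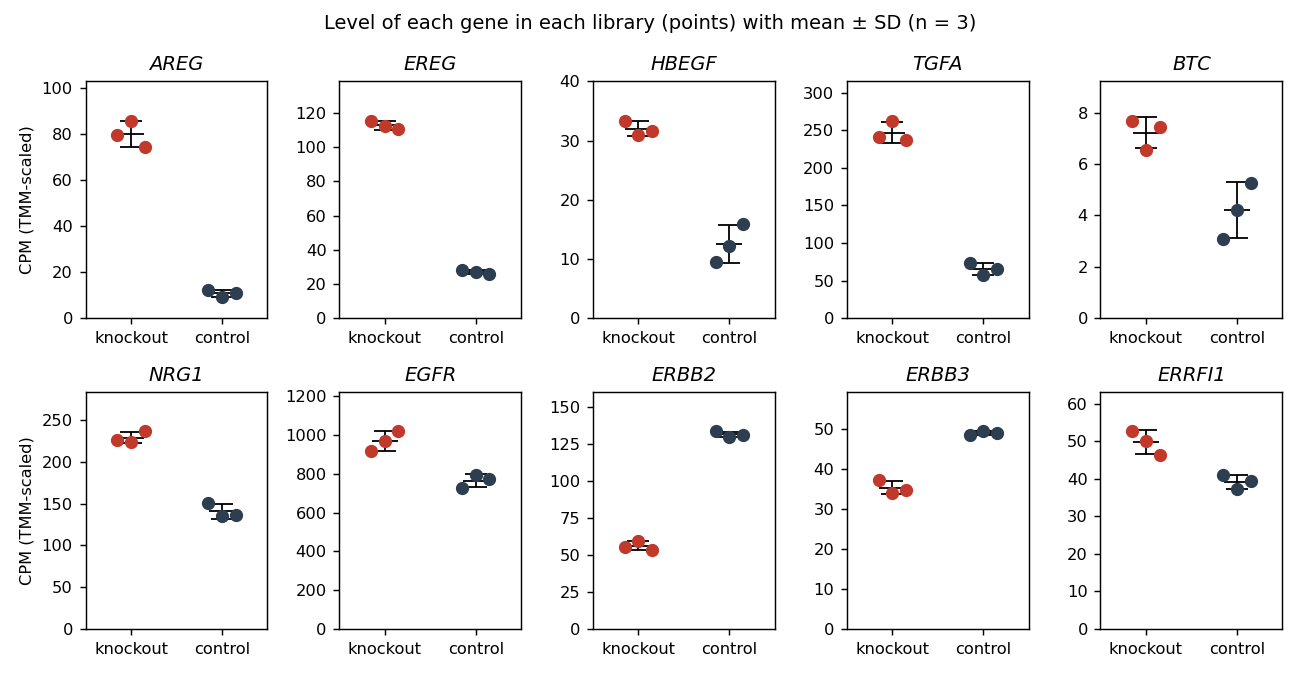
Level of each of the 10 genes in CPM (vertical axes, from 0) in the 3 knockout and 3 control libraries (points), with the mean and SD as bars. The knockout points lie above the control points in the 6 ligands, EGFR and ERRFI1 and below them in ERBB2 and ERBB3, with the largest ratio between group means in AREG, at 80.1 CPM in the knockout against 10.9 in the control.

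AREG, the gene of amphiregulin, a low-affinity EGFR ligand of keratinocytes, moved most (chr4:74445134-74455009, GRCh38, plus strand). It had 79.8, 86.0 and 74.5 CPM in the knockout libraries, against 12.2, 9.32 and 11.1 CPM in the control libraries. The lowest knockout library was far above the highest control library. The fold change was 7.42 (log2 2.89, SE 0.09), which ranked 19 from the highest among the 12293 tested genes. EREG, the gene of epiregulin, a ligand of EGFR and ERBB4, lies before it on the same strand (chr4:74365143-74388751, plus strand). It had 116, 112 and 111 CPM in the knockout libraries, against 28.0, 26.8 and 25.9 CPM in the control libraries. Its libraries were the tightest of the ligands within each group, with a coefficient of variation of 2.27% in the knockout and 3.91% in the control, which is below what counting alone would give. The fold change was 4.19 (log2 2.07, SE 0.07).

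TGFA, the gene of transforming growth factor alpha, a classical autocrine EGFR ligand of keratinocytes, lies on chromosome 2 (chr2:70447280-70554193, minus strand). It had 240.4, 263 and 237 CPM in the knockout libraries, against 72.9, 57.0 and 64.9 CPM in the control libraries. Every knockout library exceeded every control library, and the fold change was 3.82 (log2 1.93, SE 0.07). EREG and TGFA differed by 0.14 in log2 fold change (SE of the difference 0.10), whereas AREG exceeded EREG by 0.82 (SE 0.11). An SE of a difference here treats the genes as independent, although they were measured in the same libraries. HBEGF, the gene of heparin-binding EGF-like growth factor, which is shed early after wounding, lies on chromosome 5 (chr5:140332843-140346631, minus strand). It had 33.4, 31.0 and 31.7 CPM in the knockout libraries, against 9.57, 12.2 and 15.8 CPM in the control libraries. The groups did not overlap, and the fold change was 2.57 (log2 1.36, SE 0.12).

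BTC, the gene of betacellulin, a ligand of EGFR and ERBB4, was the least abundant of the 6 (chr4:74744759-74794686, minus strand). It had 7.70, 6.53 and 7.43 CPM in the knockout libraries, against 3.09, 4.22 and 5.28 CPM in the control libraries. The gap between the groups was narrow, from 89, 86 and 85 counts in the knockout against 43, 73 and 65 in the control, and the fold change was 1.72 (log2 0.79, SE 0.20). Without control replicate 1 the log2 value was 0.61, and without control replicate 3 it was 0.97. NRG1, the gene of neuregulin 1, a ligand of ERBB3 and ERBB4, lies on chromosome 8 (chr8:31639386-32767959, plus strand). It had 227, 224 and 237 CPM in the knockout libraries, against 151, 135 and 137 CPM in the control libraries. The fold change was 1.63 (log2 0.70, SE 0.05), close to that of BTC, from which it differed by 0.08 in log2 (SE of the difference 0.21).

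The control libraries varied more than the knockout libraries in each of the 6 ligands. The coefficient of variation in the control was 25.1% for HBEGF and 26.0% for BTC, where counting alone would give 7.62% and 13.2%. In the knockout it was 3.85% for HBEGF and 8.46% for BTC, both below the counting value. Control replicate 1 was the lowest control library for HBEGF and BTC and the highest for AREG, EREG, TGFA and NRG1, so the ligands did not vary together among the controls. ERBB2 and ERBB3 had the reverse pattern, with 1.47% and 1.02% in the control against 5.38% and 4.61% in the knockout. Counting alone would give 2.31% and 3.80% in the control and 3.86% and 4.86% in the knockout. Only the ERBB2 value in the knockout was above its counting value.

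Among the receptors EGFR was higher in the knockout, like the ligands, and ERBB2 and ERBB3 were lower. EGFR (chr7:55019021-55211628, plus strand) had 918, 969 and 1020.5 CPM in the knockout libraries, against 727, 796 and 775 CPM in the control libraries. It was the most abundant gene of the set, and the groups were separated by a small step of 1.27-fold (log2 0.34, SE 0.05). ERBB2 (chr17:39687914-39730426, plus strand) had 55.5, 59.4 and 53.4 CPM in the knockout libraries, against 134, 129.8 and 131 CPM in the control libraries. Control levels were thus 2.34 times those in the knockout (log2 fold change -1.23, SE 0.06). Its exons overlap those of PGAP3 and MIEN1 on the opposite strand, with at most 2185 counts over all libraries in either, against 2035 and 5711 counts of ERBB2 in knockout and control. No source used here gives the strand setting of the counting, so reads of these genes cannot be told apart with certainty. ERBB3 (chr12:56076799-56103505, plus strand) had 37.1, 34.0 and 34.6 CPM in the knockout libraries, against 48.4, 49.4 and 48.9 CPM in the control libraries. The groups did not overlap, and the log2 fold change was -0.47 (SE 0.08). The fall of ERBB2 exceeded that of ERBB3 by 0.75 on the log2 scale (difference -0.75, SE 0.10).

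ERRFI1 (chr1:8004404-8026308, minus strand) had 52.7, 50.1 and 46.4 CPM in the knockout libraries, against 41.0, 37.3 and 39.5 CPM in the control libraries. All knockout libraries were above all control libraries by a narrow margin, and the log2 fold change was 0.34 (SE 0.08). That is the same size as for EGFR, from which it differed by -0.0037 (SE of the difference 0.09).

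Of 6 family members outside the set, 3 were too low to be tested. ERBB4, the fourth receptor, had 1, 3 and 6 counts in the knockout libraries, against 36, 43 and 23 counts in the control libraries. It fell (log2 fold change -3.03, SE 0.47), from a level that was low in control cells already. ERBB4 passed the filter on low counts only through the control libraries, so no p-value is given for it. NRG4, an ERBB4 ligand, fell as well, to 9.14 ± 1.11 CPM in the knockout, against 13.0 ± 1.17 in the control (SD, n = 3 each; log2 -0.51, SE 0.14, edgeR adjusted p = 0.00227). NRG4 overlaps exons of FBXO22, a gene with 9544 counts on the opposite strand, so its count is uncertain. EPGN, the gene of the EGFR ligand epigen, had 42, 59 and 48 counts in the knockout libraries, against 38, 41 and 36 in the control libraries. It passed the threshold at a log2 fold change of 0.63 (SE 0.25, edgeR adjusted p = 0.0328), and lost the call in edgeR without knockout replicate 2 (adjusted p = 0.118), knockout replicate 3 (0.0687), control replicate 1 (0.0573) or control replicate 2 (0.123), and with DESeq2 (adjusted p = 0.0655). EGF had 0, 3 and 0 counts in the knockout and 5, 4 and 7 in the control, and NRG2 had at most 6 in any library; neither was tested. NRG3 had 0 counts in all 6 libraries, which allows up to 0.262 CPM in the library with the highest limit (3 counts, counting error only).

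Levels of different genes were compared per kilobase (kb) of exon. In knockout cells TGFA stood at 49.7 ± 2.80 CPM per kb and AREG at 48.6 ± 3.50, which did not differ beyond their spread. NRG1 followed at 20.2 ± 0.608 and EREG at 19.7 ± 0.449, again within their spread, then HBEGF at 10.6 ± 0.409 and BTC at 2.56 ± 0.217 CPM per kb (SD, n = 3). In control cells the order was TGFA at 13.1 ± 1.60 and NRG1 at 12.4 ± 0.773, within their spread, AREG at 6.61 ± 0.894, EREG at 4.70 ± 0.184 and HBEGF at 4.15 ± 1.04, also within their spread, and BTC at 1.49 ± 0.388 CPM per kb. The share of AREG in the summed per-length level of the 6 ligands was 32.1% ± 1.17 in the knockout and 15.5% ± 1.12 in the control. NRG1 made up 13.4% ± 0.863 in the knockout and 29.3% ± 1.38 in the control. The share of TGFA was close in both, at 32.8% ± 0.810 in the knockout and 30.7% ± 1.94 in the control. With the length of the longest transcript in place of all exons, NRG1 held 19.3% of the sum in the knockout and 39.5% in the control and was first in control cells, and AREG was first in knockout cells at 64.6 ± 4.65 CPM per kb against 57.3 ± 3.23 for TGFA. NRG1 and EREG then no longer tied in knockout cells, at 38.6 ± 1.16 CPM per kb for NRG1 and 24.4 ± 0.556 for EREG. Within the sum of the 6 ligands, the direction of the shift in shares was the same for each ligand with either length. Without NRG1 in the sum the direction turned for TGFA, at 37.9% ± 0.787 in the knockout and 43.5% ± 3.01 in the control, and for EREG, at 15.1% ± 0.653 in the knockout and 15.7% ± 1.37 in the control, where the EREG shares did not differ beyond their spread.

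**Figure D2:**
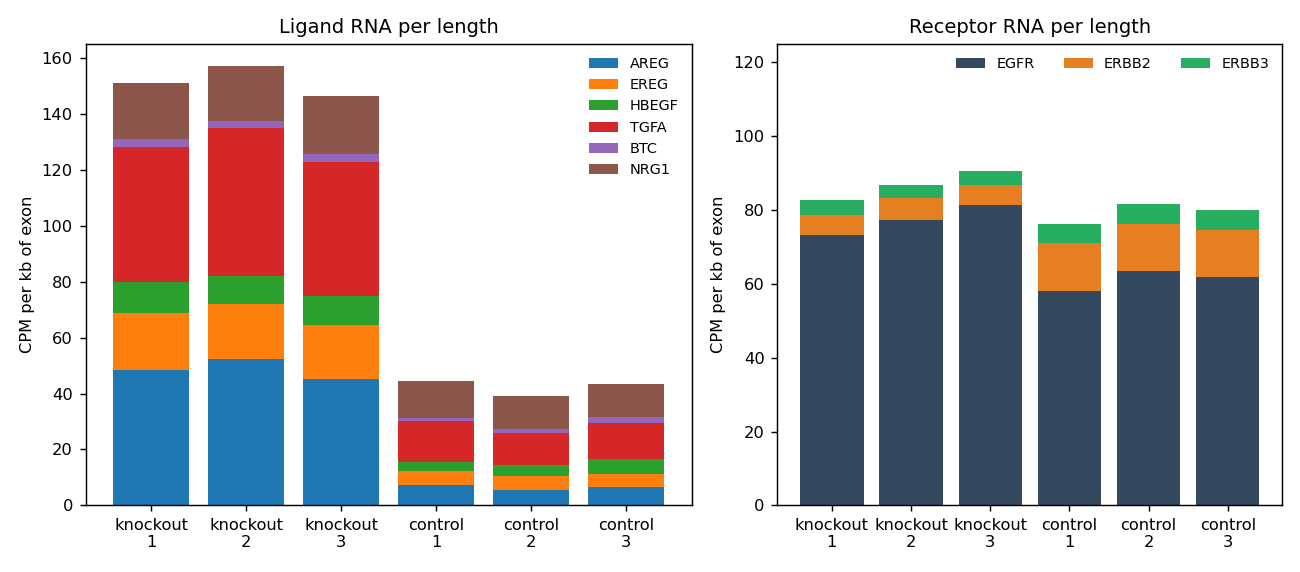
Per-length RNA level (CPM per kb of exon, stacked from 0) of the 6 ligands (left) and of EGFR, ERBB2 and ERBB3 (right) in each library. The ligand bars reach 146 to 157 CPM per kb in the knockout libraries and 39.2 to 44.6 in the control libraries, while the receptor bars differ little in height and hold less ERBB2 in the knockout.

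Of the ligands that bind EGFR, the 5 in the set were summed, without EPGN and EGF. They came to 131 ± 5.96 CPM per kb in knockout cells and 30.0 ± 2.33 in control cells, a ratio of 4.37 between the means. Set against the receptor, there were 179, 177 and 154 units of these ligands per 100 units of EGFR RNA in the knockout libraries, against 53.9, 43.0 and 50.9 in the control libraries. The groups did not overlap. Per kb of exon, knockout cells held more RNA of these ligands than of EGFR while control cells held less. In CPM not divided by length, even all 6 ligands summed to less than EGFR in both groups. They came to 698 to 722 CPM in the knockout, against 918 to 1020.5 for EGFR, and to 244 to 277 in the control, against 727 to 796. Among the receptors, EGFR made up 89.2% ± 0.747 of the summed per-length level of all 4 ERBB genes in the knockout and 76.9% ± 0.971 in the control. ERBB2 made up 6.28% ± 0.488 in the knockout and 16.0% ± 0.785 in the control, and, with the longest transcript as length, 9.82% ± 0.733 in the knockout and 23.6% ± 1.04 in the control. ERBB3 made up 4.51% ± 0.394 in the knockout and 6.81% ± 0.164 in the control. EGFR RNA was 14.3 ± 1.27 times that of ERBB2 in the knockout and 4.81 ± 0.290 times in the control; with the longest transcript as length the ratio was 8.69 ± 0.776 in the knockout and 2.93 ± 0.177 in the control. The summed receptor level differed by a factor of 1.09 (86.8 ± 3.89 CPM per kb in the knockout, 79.5 ± 2.68 in the control).

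In earlier results of these data, lower RNA followed chromosome position in places, so each gene was set beside its nearest tested genes, 10 on either side. AREG, EREG and BTC are neighbours of each other and share most of these genes. The stretches differ in length, such as 45.6 to 64.4 megabases on chromosome 7 for EGFR and 38.9 to 40.2 megabases on chromosome 17 for ERBB2. For 9 of the 10 genes the median log2 fold change of these neighbours lay between -0.08 (TGFA) and 0.17 (ERRFI1). ERBB2 was the exception. The 20 genes around it had a median of -0.94, 19 of the 20 were below 0, and 18 passed the threshold as lower. ERBB2 lay below that median (difference -0.29; the 20 values had an SD of 0.61) and ranked 6 from the lowest among itself and its neighbours. PGAP3, a gene of lipid-anchor remodelling next to ERBB2, changed by -1.45 (SE 0.13), GRB7, an adaptor gene often co-amplified with ERBB2 in tumours, by -0.96 (SE 0.11), and STARD3, a sterol transporter gene, by -0.60 (SE 0.08). NR1D1, a nuclear receptor gene of the circadian clock, was the neighbour that rose (log2 0.87, SE 0.20); its annotated end overlaps that of THRA, so its count is uncertain. PGAP3, STARD3 and NR1D1 are named outside the rule, after seeing their values. DNA copy number was not analysed here.

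**Figure D3:**
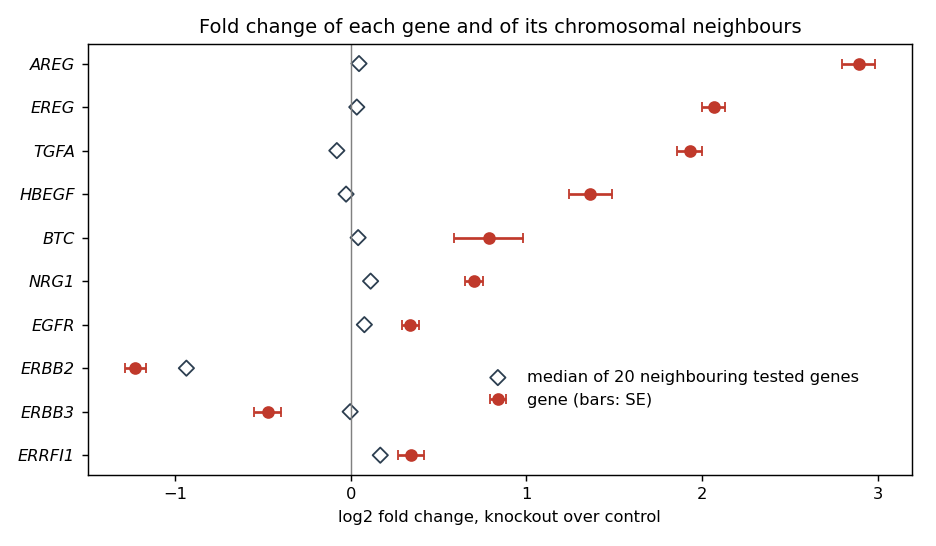
Log2 fold change, knockout over control, of each of the 10 genes (filled points, bars are SE) and the median of the 20 tested genes nearest to it on its chromosome (open diamonds). The diamonds lie near 0 except at ERBB2, where the median is -0.94 beside the gene's own -1.23.

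The ligand cluster on chromosome 4 showed a different picture. EPGN, EREG, AREG and BTC follow each other along the chromosome, with 49.8, 56.4 and 289.75 kb between their annotated ends. Their log2 fold changes in that order were 0.63 (SE 0.25), 2.07 (SE 0.07), 2.89 (SE 0.09) and 0.79 (SE 0.20). The 20 tested genes around AREG had a median of 0.05, and those directly outside the cluster, MTHFD2L at 0.01 (SE 0.20) and RCHY1 at 0.15 (SE 0.14), did not pass the threshold. EGFR lay 0.26 above the median of its 20 neighbours and 0.03 above that of the nearest 10, which was 0.31. ERBB3 lay 0.47 below the median of its neighbours (difference -0.47), and the neighbours' median was -0.0027 with either number of genes.

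**Figure D4:**
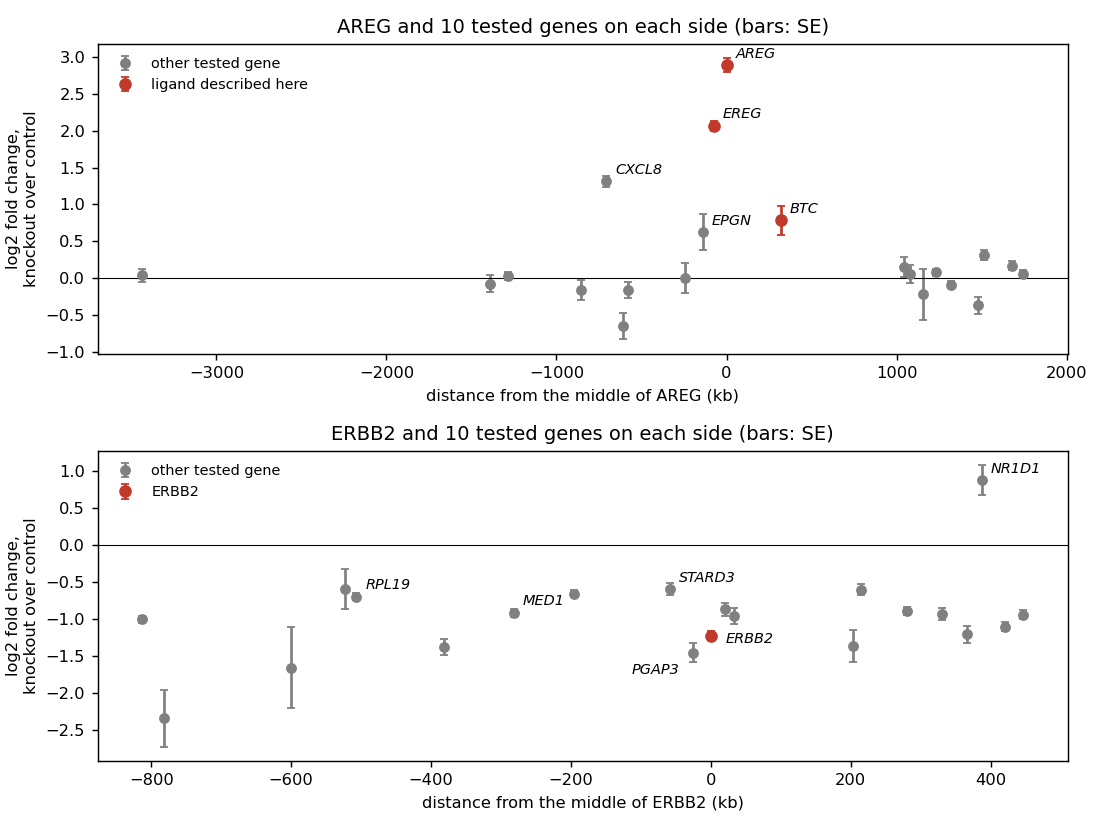
Log2 fold change, knockout over control (vertical axes), by distance in kb from the middle of AREG (top) and of ERBB2 (bottom), for each gene and the 10 tested genes on each side, with SE bars. AREG and EREG stand above genes spread around 0, whereas ERBB2, at -1.23, lies among genes of which 19 of 20 are below 0.

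By the root-mean-square difference in log2 CPM over the 6 libraries, each gene centred on its control mean, the genes most like AREG among the 10659 candidates (mean log2 CPM 2 or more) were ANTXR2, ADGRF4 and IL1R2. Their distances were 0.0885, 0.167 and 0.180 log2 units. ANTXR2, the gene of an anthrax toxin receptor, had 25.2, 29.1 and 25.2 CPM in the knockout libraries, against 3.53, 3.07 and 3.57 CPM in the control libraries. ADGRF4, an adhesion G protein-coupled receptor gene, averaged 51.4 ± 4.11 CPM in the knockout and 7.64 ± 0.954 in the control. IL1R2, the gene of the interleukin-1 decoy receptor, averaged 8.31 ± 0.838 CPM in the knockout and 0.966 ± 0.0995 in the control. With 6 libraries in 2 groups, this measure mainly finds genes with a similar fold change.

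Genes that act before and after the receptors were described by lists chosen with earlier results of these data known. Of 14 tested genes of ligand shedding, 5 rose, 3 fell and 6 did not pass, with a median log2 fold change of 0.08. These were 35.7% higher and 21.4% lower, near the 24.6% and 25.8% of all tested genes. ADAM9, a metalloprotease gene, rose by 0.26 (SE 0.05, edgeR adjusted p = 2.0e-05). FRMD8 and CNIH1, whose products support the ADAM17 partner iRhom and the transport of ligand precursors, rose by 0.27 (SE 0.06) and 0.28 (SE 0.06). TSPAN8, a tetraspanin gene, fell by 2.87 from a low level (0.488 ± 0.274 CPM in the knockout, 3.68 ± 0.319 in the control), and ADAM15 fell by 0.21. TSPAN8 passed the filter on low counts only through the control libraries. ADAM17 and ADAM10, the principal ligand sheddases, named outside the rule after their values were seen, had values of 0.03 (SE 0.06, edgeR adjusted p = 0.685) and 0.08 (SE 0.05, edgeR adjusted p = 0.150).

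Of 23 tested genes of receptor turnover and restraint, 6 rose, 4 fell and 13 did not pass, with a median of 0.08. The shares were 26.1% higher and 17.4% lower, where all tested genes had 24.6% and 25.8%. The number that fell was 2 without knockout replicate 3 and 2 with DESeq2. CBLC, an epithelial ubiquitin ligase gene of the CBL family, rose by 0.61 (SE 0.09, edgeR adjusted p = 4.77e-07). HGS, which sorts ubiquitinated receptors on endosomes, rose by 0.43 (SE 0.06) and RAB7A, a late endosome GTPase gene, by 0.30 (SE 0.06). PTPRJ, a receptor phosphatase gene, fell by 0.78 (SE 0.10, edgeR adjusted p = 1.47e-08), and STAM, a partner of HGS, fell by 0.37 (SE 0.09). LRIG1, a negative regulator of ERBB receptors, was too low to be tested.

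Of 20 genes from the adaptors through RAS to ERK, 6 rose, 3 fell and 11 did not pass, with a median of 0.06. That was 30% higher and 15% lower, beside 24.6% and 25.8% of all tested genes. MAP2K1, the gene of the kinase MEK1, was at 108 ± 2.43 CPM in the knockout and 77.2 ± 3.51 in the control (log2 0.48, SE 0.06, edgeR adjusted p = 7.29e-09). NRAS rose by 0.42 (SE 0.05). The RAS inhibitor gene NF1 fell by 0.41 (SE 0.05) and the scaffold gene KSR1 by 1.15 (SE 0.18). Both lie on chromosome 17, where the 717 tested genes had a median of -0.19 and an SD of 0.63. On that chromosome the receptor turnover list had 1 gene that rose and 1 that fell. The list of ERK-responsive genes, described below, had 1 that rose and 0 that fell there. The part of position in these changes was not tested. In the list of the PI3K, AKT, PLC and STAT arm, 9 of 19 tested genes fell, 1 rose and 9 did not pass, with a median of -0.10. That was 47.4% lower and 5.26% higher, beside 25.8% and 24.6% of all tested genes; the number that rose was 2 without knockout replicate 1. STAT3 was at 179.5 ± 7.73 CPM in the knockout and 303 ± 4.07 in the control (log2 -0.75, SE 0.05, edgeR adjusted p = 7.92e-16). STAT5B fell by 0.71 (SE 0.07), GRB7 by 0.96 (SE 0.11) and PIK3R3, a regulatory subunit gene of PI3K, by 0.81 (SE 0.10). STAT3, STAT5B and GRB7 lie on chromosome 17. AKT1, the gene that rose, changed by 0.27 (SE 0.05).

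Among the 19 tested ERK-responsive genes, 15 rose, 2 fell and 2 remained under the threshold, with a median of 0.89. Of all tested genes, 24.6% rose and 25.8% fell. EGR1 and SPRY2 were the 2 under the threshold, named outside the rule after their values were seen. EGR1 changed by -0.47 (SE 0.17, edgeR adjusted p = 0.0506) and SPRY2 by 0.04 (SE 0.25, edgeR adjusted p = 0.903). EGR1 passed as lower with DESeq2 (adjusted p = 0.00667) and limma-voom (adjusted p = 0.00464), where the number that fell was 3. PHLDA1 was at 416 ± 30.5 CPM in the knockout and 109.7 ± 4.34 in the control (edgeR adjusted p = 6.44e-26), and DUSP4, an ERK phosphatase gene, at 119.5 ± 1.68 CPM in the knockout and 34.0 ± 1.36 in the control. FOSL1, an AP-1 subunit gene, was at 45.7 ± 3.43 CPM in the knockout and 9.20 ± 1.09 in the control, and the cytokine gene LIF at 47.9 ± 3.33 CPM in the knockout and 12.3 ± 1.04 in the control. The AP-1 subunit genes FOS and JUNB fell. FOS was at 60.7 ± 6.30 CPM in the knockout and 262 ± 44.1 in the control, and JUNB at 152 ± 5.66 CPM in the knockout and 212 ± 17.6 in the control (edgeR adjusted p = 0.000584 for FOS and 6.19e-09 for JUNB). Protein levels and receptor activity were not measured in these libraries.

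**Figure D5:**
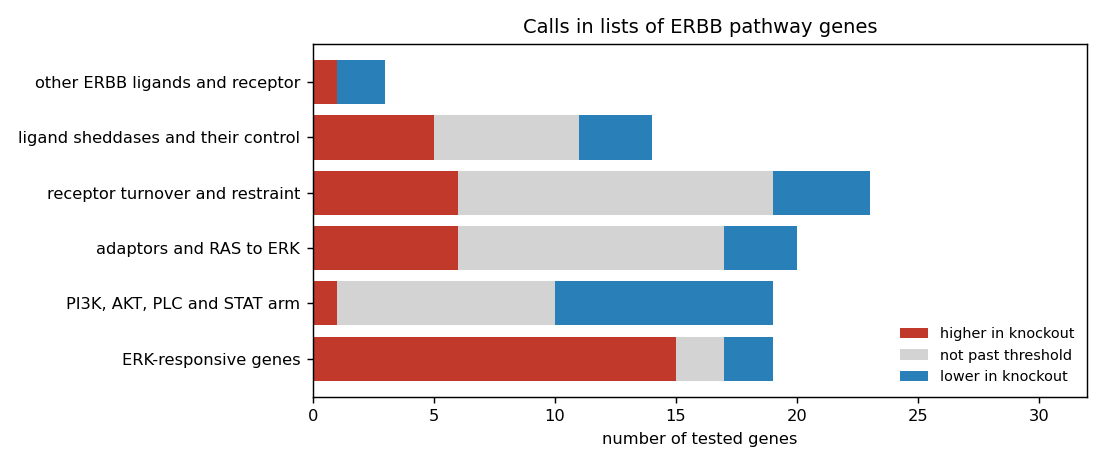
Number of tested genes (horizontal axis) that were higher in the knockout, not past the threshold, or lower, in each of 6 lists of ERBB pathway genes. The list of ERK-responsive genes holds 15 higher and 2 lower, and that of the PI3K, AKT, PLC and STAT arm 1 higher and 9 lower.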

How the data were processed

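RNA was measured in 6 libraries, 3 knockout and 3 control, made with a stranded total-RNA kit, per the labels' protocols. The authors deposited 1 table of raw counts per gene. Per the submitters' processing notes, reads were set on GRCh38. The aligner, the counter and its strand option are not given in sources used here. Within each group every pair of libraries differed beyond sampling noise (chi-square over its degrees of freedom 2.65 to 4.49, on genes summing to 20 counts or more). Copied counts or plain resampling of 1 library would not differ this much. The check cannot show whether the libraries came from separate RNA or separate cultures. Each was treated as a replicate because the labels call it so.

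Counts were tested in edgeR 4.0.16 (R 4.3.3) over all genes: filterByExpr (minimum count 10, minimum total 15), TMM scaling, robust quasi-likelihood F test, two-sided, no block, Benjamini-Hochberg adjustment, threshold 0.05. The test was checked on simulated counts. Fold changes are given as log2, knockout over control, with a prior count of 0.125, and the SE is the absolute value over the square root of F. The SE of a difference between genes is the square root of their summed squared SEs, which ignores that the genes share libraries. CPM were computed from the deposited counts on TMM-adjusted library sizes, and values after ± are SD with n = 3. Exon lengths and positions came from GENCODE 29, for 11837 of the tested genes, and promoter sequences from RefSeq. Alternatives were DESeq2 1.42.0, limma-voom 3.58.1, other scalings and filters, the replicate block and leaving out each library.

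The genes of the set and the lists were chosen with earlier results of these data known. From each pathway list up to 4 tested genes with the smallest adjusted p, and up to 2 in the direction with fewer calls, are named; all ligands and receptors are named, as are the 3 genes most like AREG.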

Additional observations from a re-analysis of the deposited data

How the results depend on the processing

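Each of the 10 genes kept its direction and its side of the threshold under all 13 alternatives of the test, with log2 fold changes of 2.78 to 2.99 for AREG, 1.21 to 1.55 for HBEGF, 0.61 to 0.97 for BTC and -1.27 to -1.19 for ERBB2 as examples. The alternatives reuse the same libraries, and the genes were chosen with the contrast known, so this is a description of the processing and not independent support. Against 3022 higher and 3175 lower genes, DESeq2 gave 2738 and 2754, and upper-quartile scaling 2671 and 3478. The replicate numbers did not pair the samples: deviations of libraries with 1 number correlated at 0.02, -0.09 and -0.01, and in 0 of 6 libraries was the own number the best match. A fit with the replicate block gave 3155 higher and 3270 lower genes. In the list of other ERBB ligands and receptor the number of higher genes was 0 with DESeq2 and 0 to 1 over the fits that leave out 1 library, against 1. In receptor turnover the number of lower genes was 2 with DESeq2 and 2 to 4 on leaving out 1 library, against 4. For the PI3K arm the number of higher genes was 1 to 2 on leaving out 1 library, against 1. Among the ERK-responsive genes the number of lower genes was 3 with DESeq2, limma-voom and upper-quartile scaling, against 2. With the longest transcript as length, shares of the ligand sum, knockout then control, were 12.2% and 9.70% for EREG, 28.5% and 25.0% for TGFA, 1.28% and 2.49% for BTC, and 19.3% and 39.5% for NRG1; the lengths used differ by construction. With 5 neighbours on each side the neighbours' median was 0.15 for HBEGF, -0.18 for TGFA, 0.31 for EGFR and 0.085 for ERRFI1; the cause was not tested. BTC, EPGN and ERBB4 rest on few counts, which limits their precision.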

Other observations

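The chemokine genes that lie beside the ligand cluster on chromosome 4 moved in different directions. CXCL8, a neutrophil chemoattractant gene, was at 55.8 ± 2.95 CPM in knockout cells and 22.6 ± 0.974 in control cells (SD, n = 3 each; log2 fold change 1.31, SE 0.08, edgeR adjusted p = 2.31e-16). CXCL6 was at 4.55 ± 0.390 CPM in knockout cells and 7.13 ± 0.392 in control cells (log2 -0.65, SE 0.18, edgeR adjusted p = 0.00326). CXCL1 was at 18.9 ± 1.77 CPM in knockout cells and 21.1 ± 2.05 in control cells and did not pass the threshold (log2 -0.16, SE 0.11, edgeR adjusted p = 0.213). These genes have close relatives in the same cluster, so reads could be split among them, and they were chosen after their values were seen.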
